A study of Mus musculus with 3 samples.

Results

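Bone marrow cells of C57BL/6 mice after repeated challenge with the bacterium Escherichia coli were set against bone marrow cells of C57BL/6 mice at steady state. All cells of the 2 libraries that held at least 500 unique molecular identifiers (UMIs, each 1 counted RNA molecule) and at least 300 genes, with at most 10% of UMIs from mitochondrially encoded genes, were taken. They came to 17765 cells of the 26415 that passed the same limits in the 3 libraries of the series. The unchallenged group was 1 library of 9223 such cells, labelled steady state. The rechallenged group was 1 library of 8542 such cells, from mice given E. coli 2 times and labelled 48 h. Marrow in both groups was enriched for cells bearing Kit, the receptor for stem cell factor that marks stem cells, progenitors and mast cells, and the library kit was the 10x Genomics Single Cell 3 prime kit, V2. From when the hours count, the route and dose of the bacteria, and whether animals were pooled are not given in the sources used here, so the number of challenges and the time cannot be told apart. With 1 library in each group there is no replicate error and no test between the groups. Every interval below is a 95% interval for counting error only.

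Haematopoietic stem and progenitor cells (HSPCs) give rise to all blood cells. On the neutrophil path, progenitors first make azurophil granule proteins such as the serine protease elastase (Elane) and myeloperoxidase (Mpo). The next stage makes specific granule proteins such as cathelicidin (Camp) and neutrophilic granule protein (Ngp), and mature neutrophils then make gelatinase granules, chemokine receptors and, in mice, a cluster of stefins, which are inhibitors of cysteine proteases. Bacterial infection is known to draw mature neutrophils out of the marrow and to raise the output of myeloid cells, a response called emergency granulopoiesis. Type I interferon acts through a receptor pair, Ifnar1 and Ifnar2, and factors that include Stat2 and Irf9 on genes that carry interferon-stimulated response elements, and many of their products act against viruses.

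The source label of both libraries names marrow neutrophils while the enrichment label names Kit, and the series design text speaks of 2 samples and a different treatment, so the labels of each sample were followed. Kit was seen in 6.04% (5.55 to 6.55) unchallenged and 8.65% (8.03 to 9.3) rechallenged cells when every cell with at least 2000 UMIs was drawn down to 2000 UMIs, and in 27.3% and 32.6% at full depth. The thinned share was 21.6% unchallenged and 26.8% rechallenged among HSPC-like cells and 1.67% unchallenged and 1.99% rechallenged in cluster 7, a neutrophil-lineage cluster led by Fcnb and Camp, which served as the level in cells that should hold little Kit. Both libraries therefore held many cells with no detected Kit, and specific granule transcripts made up 25.3% of unchallenged and 11.5% of rechallenged UMIs.

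The unchallenged cells had a median of 11196 UMIs, 2261 genes and 2.06% mitochondrial UMIs, and the rechallenged cells 10500.5 UMIs, 2207 genes and 4.09%. For the comparison, cells with at least 2000 UMIs (8812 unchallenged and 7780 rechallenged) were drawn to 2000 UMIs each, which left 411 and 762 shallower cells out. Levels are counts per 1000000 of these UMIs (CPM). A ratio is the log2 of the rechallenged over the unchallenged level after 10 CPM were added to both, which understates the fold of weakly expressed genes, and a gene was called higher or lower past 1.5-fold on that scale if it had at least 100 UMIs over the pair. The libraries shared 113 cell barcodes. Scrublet, which looks for droplets holding more than 1 cell, called 427 unchallenged (4.63%) and 256 rechallenged cells (3.0%), and these were kept in the all-cell comparison and left out of the classes.

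Most genes stood within 1.5-fold between the libraries. Of 9562 genes measured, 8680 (90.8%) did so, 366 (3.83%) were higher after repeated challenge and 516 (5.4%) were lower, with a median log2 ratio of −0.03 over all genes. At least 4-fold higher were 13 genes. They comprised 5 stefins (Stfa1, Stfa2, Stfa2l1, Stfa3 and BC100530), Gm5483 at the same locus, the secreted whey acidic protein Wfdc17, the cytokine gene Il1b, the chemokine genes Ccl5, Ccl6 and Cxcl2, the cytotoxic protease gene Gzma, and the basophil protease gene Mcpt8. Gm5483 was outside the rule for naming genes and was chosen after its value was seen. At least 4-fold lower were 9 genes, namely 7 genes of early B cells (Igll1, Vpreb1, Vpreb3, Mzb1, Cd79a, Cd79b and Ebf1), Tifa, an adaptor of the NF-kB path, and Chil3, a chitinase-like protein of immature neutrophils. Most genes of the 4-fold lists are known from mature or immature neutrophils, cytotoxic lymphocytes, basophils or B cell precursors.

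**Figure D1:**
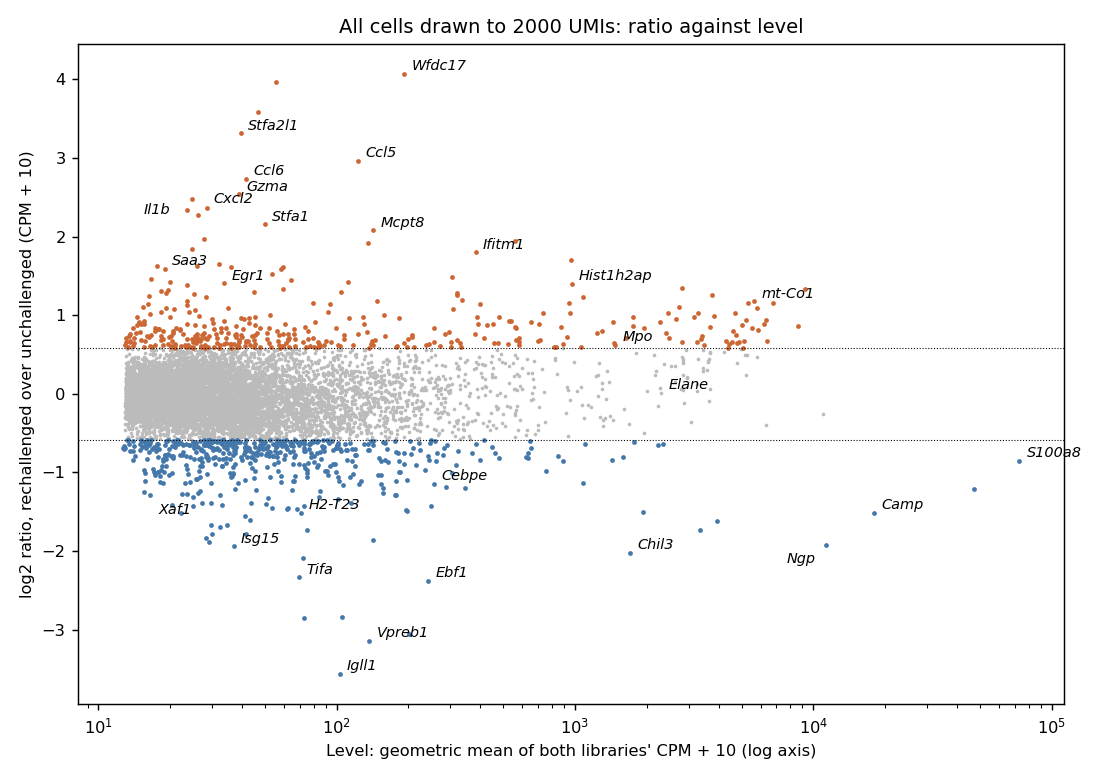
Log2 ratio of rechallenged over unchallenged level (vertical axis) against the mean level of each of 9562 measured genes in CPM (horizontal log axis), for all cells drawn to 2000 UMIs. Most genes lie within 1.5-fold, while stefin, Wfdc17, Ccl5 and Gzma points lie at the top and B cell precursor genes such as Igll1 and Vpreb1 at the bottom.

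The share of each kind of cell differed strongly between the libraries. Classes were built by clustering all 3 libraries together and naming clusters from marker genes, and the ending "like" is kept because no surface marker or morphology was seen. Neutrophil progenitor-like cells were 9.14% (8.55 to 9.76) of unchallenged and 22.9% (22 to 23.9) of rechallenged cells, and immature neutrophil-like cells 35.4% (34.4 to 36.5) of unchallenged and 11.3% (10.6 to 12) of rechallenged cells. Granule genes, whose levels differed between the libraries, set the border between these classes. Counted together they were 44.6% (43.5 to 45.6) and 34.3% (33.2 to 35.3). Mature neutrophil-like cells were 4 cells (0.0455%) unchallenged and 434 cells, 5.24% (4.77 to 5.74), rechallenged, with a median of 1829 UMIs in the latter. All neutrophil classes with the unnamed clusters 7 and 14 came to 53.7% (52.7 to 54.8) and 49.2% (48.1 to 50.3), so the neutrophil lineage as a whole was nearer in share than its stages were.

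Outside the neutrophil lineage, monocyte-like cells were 6.55% (6.04 to 7.09) of unchallenged and 13.3% (12.6 to 14.1) of rechallenged cells, dendritic-like cells 3.25% (2.89 to 3.64) of unchallenged and 6.93% (6.39 to 7.5) of rechallenged cells, and basophil or mast-like cells 1.47% (1.23 to 1.74) of unchallenged and 3.52% (3.14 to 3.94) of rechallenged cells. The dendritic-like class joined 2 clusters. Cluster 12 (229 unchallenged and 427 rechallenged cells) had Siglech, a gene of plasmacytoid dendritic cells, among its leading genes together with Flt3, Ly6d and Dntt, which early lymphoid cells also express, and cluster 20 (57 and 147) was led by the MHC class II genes H2-Aa and H2-Eb1. T, natural killer (NK) or innate lymphoid-like cells were 0.739% (0.571 to 0.941) of unchallenged and 4.42% (3.98 to 4.88) of rechallenged cells. Among them, cluster 18, led by the cytotoxic genes Gzma and Ccl5 with Il2rb and Klrd1, had 35 unchallenged and 341 rechallenged cells, and cluster 27, led by the T cell genes Trbc1, Gata3 and Tcf7, had 30 and 25. B lineage-like cells were 13.6% (12.8 to 14.3) of unchallenged and 4.68% (4.24 to 5.16) of rechallenged cells, and they were shallower in the rechallenged library, at a median of 1452 UMIs against 3619.5. Erythroid-like cells were 6.36% (5.85 to 6.89) of unchallenged and 3.13% (2.76 to 3.52) of rechallenged cells. HSPC-like cells were 11.1% (10.5 to 11.8) of unchallenged and 11.3% (10.7 to 12) of rechallenged cells, whose intervals overlap, and with finer clustering the log2 ratio of their share was −0.77 in place of 0.03. Megakaryocyte-like cells were 0.773% and 0.978%, eosinophil-like cells 0.432% and 0.386% and macrophage-like cells 1.01% and 0.507%. Shares sum to the whole, so a larger class makes the others smaller, and after enrichment for Kit they say nothing of how common a class is in unsorted marrow.

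**Figure D2:**
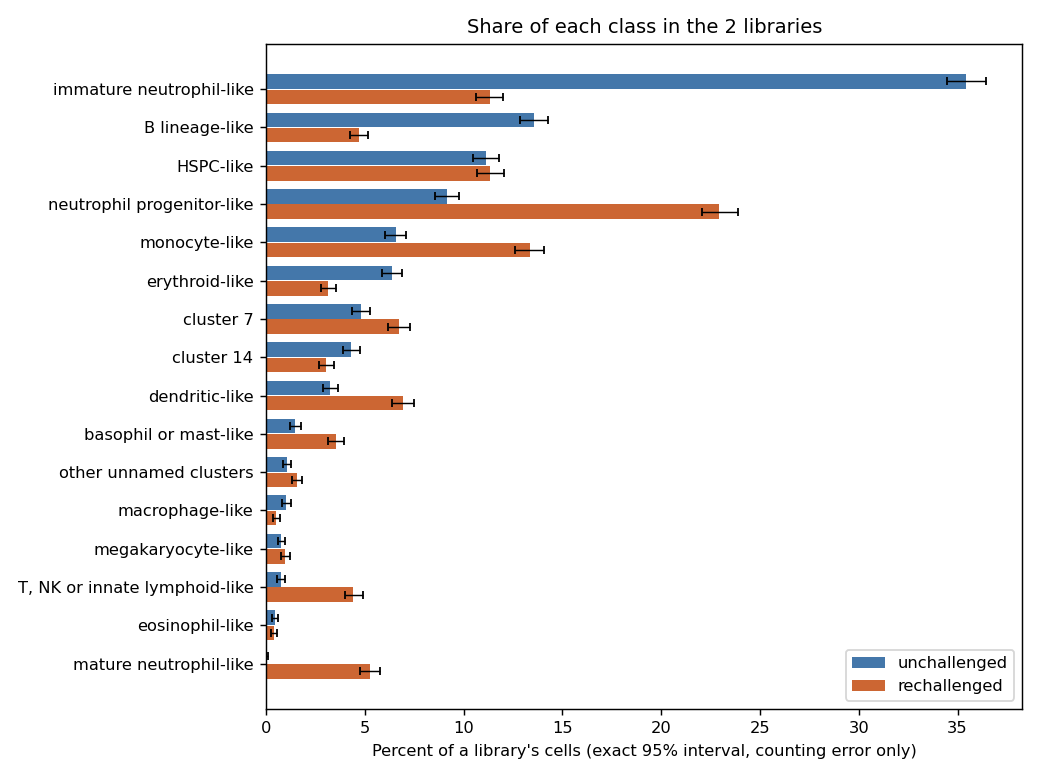
Percent of cells in each class for the unchallenged and rechallenged libraries, at all depths and with doublet calls left out, with exact 95% intervals for counting error. Immature neutrophil-like and B lineage-like cells hold smaller shares in the rechallenged library, and neutrophil progenitor-like, monocyte-like, dendritic-like, basophil or mast-like and cytotoxic lymphocyte-holding classes larger ones.

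Several classes were filled from different clusters in the 2 libraries, and this bears on every value within them. Monocyte-like cells came from cluster 5 (565 unchallenged, 25 rechallenged) and cluster 9 (11 and 1080). Neutrophil progenitor-like cells came from cluster 6 (588 and 69), cluster 8 (8 and 1128) and cluster 3 (208 and 704). Immature neutrophil-like cells came from cluster 0 (1895 and 36), cluster 16 (58 and 535) and cluster 4 (1165 and 366). HSPC-like cells were evenly spread, with 632 and 659 cells in cluster 1 and 347 and 281 in cluster 10. Whether a cluster that is nearly all from 1 library is a stage of cells or that library was not tested.

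Within the 12 classes and clusters that held at least 50 cells of 2000 UMIs in both libraries, lower genes outnumbered higher ones. In HSPC-like cells 3.08% of 4058 measured genes were higher and 16.6% lower. Neutrophil progenitor-like cells had 5.09% of 4397 higher and 10.3% lower, immature neutrophil-like cells 4.26% of 4247 higher and 9.8% lower, and monocyte-like cells 5.19% of 3218 higher and 13.5% lower. Dendritic-like cells had 5.95% of 1850 higher and 17.9% lower, erythroid-like cells 3.66% of 1801 higher and 20.4% lower, and B lineage-like cells 8.39% of 3171 higher and 28.5% lower. The smaller classes had 10.4% higher and 25.4% lower of 307 genes (megakaryocyte-like), 7.57% and 17.7% of 846 (basophil or mast-like) and 15.5% and 22.1% of 759 (T, NK or innate lymphoid-like). Cluster 7 had 11.5% higher and 12.3% lower of 1570, and cluster 14, led by the neutrophil genes Mmp8, Retnlg and Mmp9, had 7.71% and 16.3% of 869.

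The balance of higher and lower genes depended on the scaling. Ribosomal protein genes made up 42.0% of unchallenged and 48.8% of rechallenged UMIs in HSPC-like cells, and 23% and 35.9% over all cells. When levels were taken over UMIs outside ribosomal, mitochondrial and specific granule genes, an alternative chosen after seeing the data, lower genes still outnumbered higher ones in B lineage-like cells (476 higher and 684 lower), immature neutrophil-like cells (325 and 492), erythroid-like cells (130 and 267) and cluster 14 (85 and 132). The 2 directions were closer in HSPC-like cells (361 and 383), monocyte-like cells (286 and 307), neutrophil progenitor-like cells (399 and 385), dendritic-like cells (218 and 200) and cluster 7 (207 and 197). Higher genes outnumbered lower ones on that scale in megakaryocyte-like cells (62 and 39) and basophil or mast-like cells (119 and 97), as they did among T, NK or innate lymphoid-like cells, where 187 were higher and 99 lower. Scaling by the median of gene ratios, which sets the middle of each class near 0 by construction, moved all genes of a class by 0.06 (cluster 7) to 0.28 (erythroid-like) on the log2 scale, and in HSPC-like cells by 0.26. The higher share of calls in HSPC-like cells was then 58.6% in place of 15.6%, and in the other classes it lay between 47.4% (B lineage-like) and 61.3% (monocyte-like), which says nothing of the balance itself. Over all cells the shift was only 0.06. A gene past the fold in a class by less than its shift therefore depends on the scaling.

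To hold class make-up the same, per-class levels were also averaged with the unchallenged shares as weights in both libraries. At equal class shares 162 genes (1.69%) were higher and 491 (5.13%) lower, with a median of −0.09 over all genes. Of the genes past the fold over all cells, 114 higher and 272 lower ones were also past it at equal shares. A single gene was lower over all cells and higher at equal shares. The genes with the largest gains at equal shares were stefins, Hist1h2ap, S100a6, Slc7a11 and Egr1, and those with the largest losses were led by interferon-stimulated genes.

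Interferon-stimulated genes were lower after repeated challenge, over all cells and within most classes. Of 33 genes in the list, 30 were measured, 0 were higher and 15 lower over all cells, with a median log2 ratio of -0.59 against −0.03 for all genes. At equal class shares 0 were higher and 18 lower, with a median of -0.72 against −0.09. The summed level of the list was 1341 CPM unchallenged and 636 CPM rechallenged.

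By role, the receptors differed little. Ifnar1 was at 13.1 and 13.9 CPM unchallenged and rechallenged, a log2 ratio of 0.05, and Ifnar2 at 34.7 and 40.1 CPM (0.16). The interferon gamma receptor gene Ifngr1 was at 78.6 and 99 CPM (0.30). Of the transcription factors, Stat2 had a ratio of -0.09, inside 1.5-fold. Irf9, its DNA-binding partner, was at 35.6 and 14.1 CPM (-0.92). Irf7, which amplifies the production of type I interferon, was 30.9 CPM (28.4 to 33.6) in the unchallenged library and 7.39 CPM (6.1 to 8.87) in the rechallenged one, a log2 ratio of -1.24. Receptor genes thus stood within 1.5-fold while 2 of the 3 factors named were lower past it.

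The effector genes gave the largest differences. Isg15, a ubiquitin-like tag put on newly made proteins, was at 62.5 CPM (58.9 to 66.3) in the unchallenged library and 8.87 CPM (7.45 to 10.5) in the rechallenged one, a log2 ratio of -1.94. Isg15 was seen in 9.50% of unchallenged and 1.47% of rechallenged cells at 2000 UMIs, and in 31.2% and 4.70% at full depth. Usp18, the protease that removes Isg15 from proteins, was at 17.5 and 2.57 CPM (-1.13). Rtp4, a chaperone-like inhibitor of viral replication, was at 60.9 and 17.1 CPM (-1.39) and Xaf1, a cell death factor, at 33.9 and 6.75 CPM (-1.39). Among effectors that bind or sense viral RNA, Ifit1 was at 15.4 and 3.41 CPM (-0.92) and Oas1a at 25.7 and 10 CPM (-0.83). Ifi27l2a was at 398 and 142 CPM (-1.42), and the immunity GTPase Irgm1 at 27.2 and 8.87 CPM (-0.98). The guanylate-binding proteins Gbp2 and Gbp3, known above all as targets of interferon gamma, had ratios of -0.02 and 0.14. The lower levels therefore did not extend to every member of the list.

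Within classes the pattern was uneven. In HSPC-like cells, of 16 measured members, 0 were higher and 12 lower, with a median of -0.97 against −0.22 for all genes of that class, and in cluster 1 alone 9 of 13 were lower, with a median of −1.02. Of 15 measured members, 1 was higher and 12 lower in B lineage-like cells (median -1.51, all genes −0.24), and of 10 measured members, 0 were higher and 7 lower in immature neutrophil-like cells (median -1.21, all genes −0.12). In cluster 14 all 4 measured members were lower, with a median of -1.28, in monocyte-like cells 4 of 7 and in dendritic-like cells 2 of 7. Neutrophil progenitor-like cells had 1 of 5 lower, with a median of -0.18. In T, NK or innate lymphoid-like cells only 2 members were measured, of which 1 was higher and 0 lower.

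In HSPC-like cells Isg15 was at 88.7 and 12.3 CPM, a log2 ratio of -2.14. Ifit1 was at 46.7 and 5.9 CPM (-1.83), Rtp4 at 120 and 24.7 CPM (-1.91), Irf7 at 63.6 and 15.6 CPM (-1.53) and Xaf1 at 61 and 13.4 CPM (-1.60). In B lineage-like cells Isg15 went from 228 UMIs to 0, at least 10.4-fold lower when the rechallenged class is set at 3 counts, the limit that a count of 0 allows over its cells. All of these differences exceed the shift of 0.26 that the other scaling gave in both classes.

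The share of cells with any transcript of the list was lower in most classes. Ly6a, Bst2 and Ifi27l2a were left out of this count because they also mark cell types. At 2000 UMIs at least 1 UMI of the other 30 genes was found in 62.8% (61.8 to 63.8) unchallenged and 45.1% (44 to 46.2) rechallenged cells, and in 96.1% and 89.3% at full depth. Among HSPC-like cells it was 81% unchallenged and 61.8% rechallenged, among immature neutrophil-like cells 50.8% unchallenged and 28.2% rechallenged, among erythroid-like cells 61.3% unchallenged and 29.1% rechallenged and among B lineage-like cells 88.8% unchallenged and 57.1% rechallenged. In T, NK or innate lymphoid-like cells the share was not lower, at 77.8% (65.5 to 87.3) unchallenged and 79% (74.2 to 83.2) rechallenged, with overlapping intervals. No class should lack these genes, so no background share could be given. Ngp, a neutrophil gene that reports free RNA in other cells, was seen in 95.2% of unchallenged and 34.3% of rechallenged B lineage-like cells, and the part of free RNA in the lower shares was not tested.

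**Figure D3:**
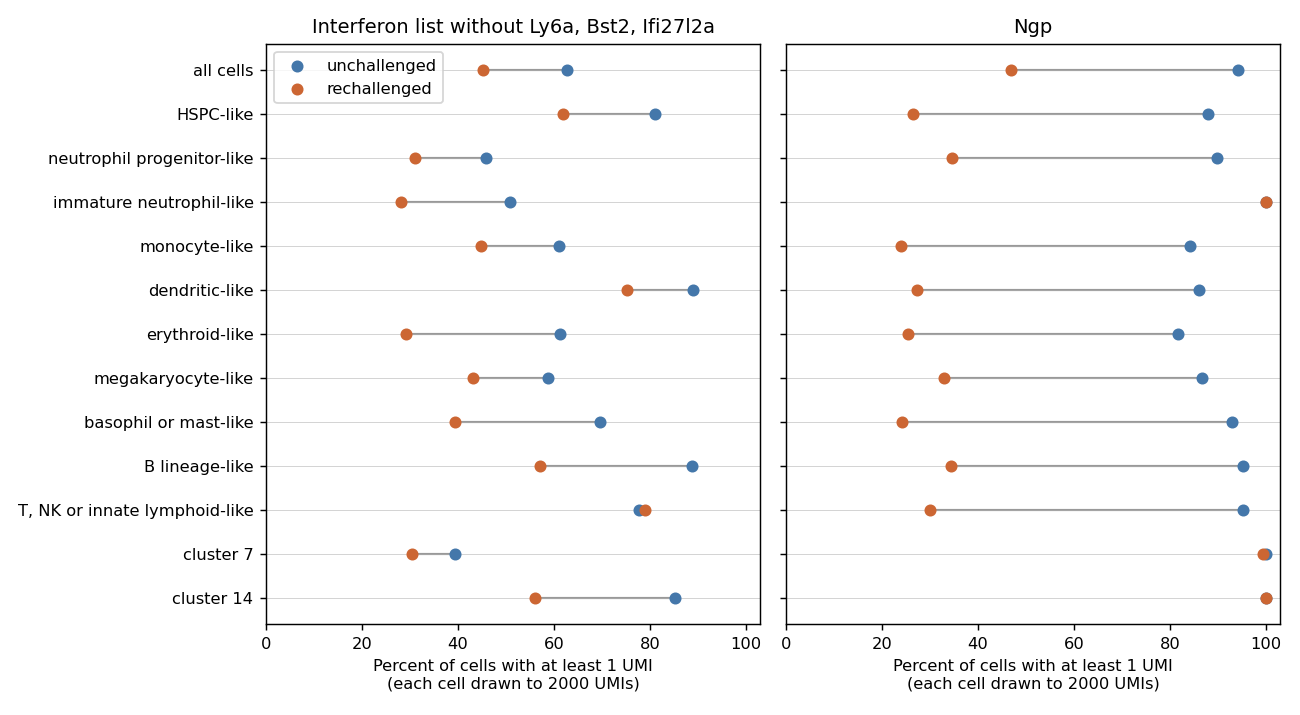
Percent of cells with at least 1 UMI of 30 interferon-stimulated genes (left) and of Ngp (right) in each class, after drawing every cell to 2000 UMIs, with unchallenged and rechallenged points joined by a line. For the interferon genes the rechallenged point lies to the left in every class other than T, NK or innate lymphoid-like cells. For Ngp it lies to the left in every class except the immature neutrophil-like class and cluster 14, where both points lie at 100%.

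Promoters of the list hold a known kind of binding site. The core of the interferon-stimulated response element, GAAA, then 2 bases of any kind, then GAAA, was searched on both strands of the 250 bases before the RefSeq gene start (GRCm38.p6). It occurred in 936 of 27025 genes (3.46%), in 262 of 7601 measured genes (3.45%), and in 11 of 22 measured interferon list members with a promoter entry (50%). Among list members lower past 1.5-fold it was in 5 of 11 (45.5%). Among all genes lower past 1.5-fold it was in 22 of 396 (5.56%) and among higher genes in 14 of 270 (5.19%). A match is a description of the letters and not a shown site. The stretches below come from 4 lower members and from the MHC class I gene H2-T23, and Saa3, a higher gene, is shown because its promoter holds the same letters. Capitals mark the core, which reads TTTC, 2 bases, TTTC where it lies on the other strand.
Isg15, chr4:156200867-156200916, minus strand: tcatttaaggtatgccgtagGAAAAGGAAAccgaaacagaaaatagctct
Ifit1, chr19:34640765-34640814, plus strand: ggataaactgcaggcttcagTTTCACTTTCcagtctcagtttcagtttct
Irgm1, chr11:48871421-48871470, minus strand: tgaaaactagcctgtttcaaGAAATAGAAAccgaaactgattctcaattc
Oas1a, chr5:120907526-120907565, minus strand: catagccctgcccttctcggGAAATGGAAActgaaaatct
H2-T23, chr17:36032796-36032845, minus strand: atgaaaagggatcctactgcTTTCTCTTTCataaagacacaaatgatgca
Saa3, chr7:46715772-46715821, minus strand: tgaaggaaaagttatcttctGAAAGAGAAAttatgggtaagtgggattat
The core lies 68 bases before the start of Isg15, 94 before Ifit1, 20 before Irgm1, 10 before Oas1a, 114 before H2-T23 and 115 before Saa3. These distances are to the RefSeq start. In the GENCODE M21 annotation H2-T23 runs from 36029773 to 36032855, so its printed stretch lies inside that gene. The Isg15 window held 3 matches and the Ifit1 window 2. Isg15, Ifit1 and H2-T23 were lower and Saa3 was higher, so the letters alone do not sort the genes by direction.

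Genes of antigen presentation, several of which respond to interferon, were only in part lower. Of 13 measured members, 0 were higher and 3 lower over all cells, with a median of -0.11, and at equal class shares 0 were higher and 2 lower (median -0.40). The non-classical class I gene H2-T23, whose product is a ligand for inhibitory receptors of NK cells, was at 110.2 CPM (105 to 115) in the unchallenged library and 32.1 CPM (29.3 to 35) in the rechallenged one, a log2 ratio of -1.51. It was lower in all 7 classes in which it was measured, with 246 and 46.1 CPM in HSPC-like cells (-2.19). Of the 31-base words in the last 300 bases of H2-T23, 24.1% also occur in other genes, so its reads may be split between copies. The classical gene H2-D1 was at 815 and 478 CPM (-0.76), though 37.0% of the 31-base words in its last 300 bases also occur in other genes, so reads may be split between copies. H2-K1 had a ratio of 0.06, the light chain B2m -0.49 and the peptide transporter Tap1 0.23. Class II genes were 2 higher and 0 lower of 6 over all cells, H2-Aa (0.66) and H2-Eb1 (0.59). Both had ratios under 0 at equal class shares (-0.06 and -0.11), and within dendritic-like cells, the source of most class II transcripts, 3 of 6 were lower (median -0.48).

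The stefin genes of chromosome 16 were the most strongly higher family. They lie within a stretch of GRCm38 (GENCODE M21) that runs from Stfa2l1 (36156811 to 36161953) through Gm5483 (36184212 to 36188111), Stfa1 (36276951 to 36285373), BC100530 (36359382 to 36367748) and Stfa2 (36403992 to 36408457) to Stfa3 (36450537 to 36455392). BC100530 was at 3.52 CPM (2.7 to 4.51) in the unchallenged library and 152 CPM (146 to 159) in the rechallenged one, a log2 ratio of 3.59. Stfa2l1 was at 2.55 and 115 CPM (3.31), Stfa2 at 0.454 and 48.3 CPM (2.48), Stfa3 at 1.87 and 47.5 CPM (2.28), Stfa1 at 13.6 and 95.4 CPM (2.16) and Gm5483 at 4.09 and 209 CPM (3.96). The copies are alike, and 82.6% of the 31-base words in the last 300 bases of BC100530, 74.4% of those of Stfa1, 44.8% of Stfa2 and 37.4% of Stfa2l1 occur in other genes. Values for single stefins are therefore uncertain, and the sum over the 6 genes was 26.1 CPM unchallenged and 668 CPM rechallenged.

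Stefin transcripts were concentrated in late neutrophil stages. In rechallenged mature neutrophil-like cells 172 of 191 (90.1%) had at least 1 stefin UMI. In cluster 14 it was 13.8% (10.4 to 17.8) unchallenged and 58.2% (51.7 to 64.6) rechallenged, with summed levels of 316 and 5869 CPM. In immature neutrophil-like cells it was 2.49% and 23%, with 24.4 and 1049 CPM. Cluster 7 had 5.97% and 3.98%. Monocyte-like, HSPC-like, lymphoid-like and other non-neutrophil classes with at least 50 cells in both libraries, and neutrophil progenitor-like cells, had 0.897% to 2.05% in the rechallenged library, the level seen in cells that should lack these genes. BC100530 and Stfa1 lead cluster 16 and Stfa3 and BC100530 are among the leading genes of cluster 14, so the class values follow in part from how the clusters were drawn. At equal class shares, where mature neutrophil-like cells do not enter, the ratios were 4.16 for BC100530, 2.72 for Stfa1 and 2.38 for Stfa2.

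Other genes of mature neutrophils were higher over all cells, mostly through the mature neutrophil-like class. Wfdc17 was at 36.8 CPM (34 to 39.8) in the unchallenged library and 776 CPM (762 to 789.8) in the rechallenged one, a log2 ratio of 4.07, and 86.3% of its rechallenged UMIs came from mature neutrophil-like cells. The interleukin 1 beta gene Il1b was at 0.511 and 43.1 CPM (2.34), with 87.8% from that class. Cxcl2, a chemokine that draws neutrophils, was at 2.55 and 54.4 CPM (2.36, 79.4% from that class) and Ccl6 at 6.13 and 97.4 CPM (2.73, 78.0%). At equal class shares, where mature neutrophil-like cells do not enter, the ratios were 0.85 for Wfdc17, 0.28 for Il1b, 0.76 for Cxcl2 and 0.74 for Ccl6. Smaller ratios there follow in part from leaving out that class. Of 23 measured members, 12 were higher and 1 lower in the gelatinase and mature neutrophil list (median 0.61), and 7 were higher and 0 lower at equal shares (median 0.26). Csf3r, the receptor for granulocyte colony-stimulating factor, was at 28.9 and 56.4 CPM (0.77) over all cells and had a ratio of 0.08 at equal shares.

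Within cluster 14, which holds late neutrophil cells of both libraries (377 unchallenged and 251 rechallenged), Wfdc17 was at 6.91 and 641 CPM (5.27). Ifitm1, an interferon-inducible membrane protein, was at 59.4 and 795 CPM (3.54), and the calcium-binding protein gene S100a6 at 5669.9 and 20348 CPM (1.84). In the same cells Isg15 was at 159 and 25.3 CPM (-2.26) and Thbs1, the gene of the matrix protein thrombospondin, at 249 and 33.8 CPM (-2.56). Ifitm1 and Isg15, both induced by interferon in other settings, thus stood on opposite sides in the same cluster. Ifitm1 was also higher in neutrophil progenitor-like cells (50.6 and 207 CPM, 1.84) and monocyte-like cells (95.8 and 437 CPM, 2.08), level in HSPC-like cells (1055 and 1095 CPM, 0.05) and lower in basophil or mast-like cells (2695 and 1377 CPM, -0.96). Over all cells it was at 195 and 705 CPM (1.80), with 46.3% of rechallenged UMIs from mature neutrophil-like cells.

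Inflammatory cytokine and chemokine genes were few among those measured and mostly higher. Of 18 cytokine and chemokine genes 10 were measured, 7 were higher and 1 lower over all cells, with a median of 1.62, and the median at equal shares was 0.51 with 5 higher and 1 lower. Ccl3 was at 10.5 and 53 CPM (1.62) over all cells, 12.2 and 79.8 CPM in monocyte-like cells (2.02) and 82 and 384 CPM in basophil or mast-like cells (2.10). The acute phase gene Saa3 was at 0.965 and 23 CPM (1.59), and in neutrophil progenitor-like cells it had 1 UMI unchallenged and 158 rechallenged, 66.8-fold (11.8 to 2653 by counting error). Of the 31-base words at the end of Saa3, 35.6% occur in other genes, so its counts may be shared with them. Of 19 measured members, 5 were higher and 4 lower in the acute phase and bacterial defence list, with a median of -0.02 that changed sign under 6 of the alternatives tried. Feedback genes of NF-kB were mixed over all cells, with 3 higher and 1 lower of 15, while at equal class shares 0 were higher and 1 lower. Over all cells the inhibitor gene Nfkbia was at 154 and 68.4 CPM (-1.06), and Tnfaip3, Nfkb1 and Ier3 had ratios of 0.62, 0.60 and 0.73.

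Granule genes of the 2 stages differed in opposite directions over all cells. Of 20 measured members, 0 were higher and 17 lower in the specific granule list (median -1.02), and of 13 measured members, 8 were higher and 0 lower in the azurophil list (median 0.62). Held at equal class shares, 0 were higher and 6 lower of the specific granule list (median -0.25) and 0 higher and 2 lower of the azurophil list (median -0.28), and the higher azurophil levels over all cells went with the larger share of neutrophil progenitor-like cells. Ngp was at 22020 CPM (21951 to 22089) in the unchallenged library and 5805 CPM (5768 to 5843) in the rechallenged one, a log2 ratio of -1.92 over all cells and -0.73 at equal shares. Camp was at 30301 and 10599 CPM (-1.51, -0.44 at equal shares), and Lcn2, the gene of the iron-withholding protein lipocalin 2, at 6919 and 2243 CPM (-1.62). S100a8 and S100a9, the calprotectin subunit genes, had ratios of -0.86 and -1.21 over all cells and 0.01 and -0.25 at equal shares.

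Among azurophil genes, Prtn3 (proteinase 3) was at 1243 and 2446 CPM (0.97, -0.06 at equal shares) and Mpo at 1176 and 1814 CPM (0.62, -0.47 at equal shares). Elane was at 2278 and 2303 CPM over all cells (0.02), but within neutrophil progenitor-like cells at 15097 and 6442 CPM (-1.23) and within monocyte-like cells at 5644 and 2029 CPM (-1.47). In the progenitor-like class 0 azurophil genes were higher and 3 lower of 12. Cebpe, the factor that drives specific granule genes, was at 371 and 162 CPM (-1.15, -0.76 at equal shares), Cebpd had a ratio of -0.92 and Spi1, a general myeloid factor, -0.57, just inside 1.5-fold. Gfi1, a repressor needed for neutrophil fate, was at 14.8 and 24.5 CPM (0.47), and Irf8, its counterpart on the monocyte path, at 80.3 and 106 CPM (0.37). Of 16 measured members, 0 were higher and 3 lower in the regulator list.

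Specific granule transcripts were also lower in cells that are not neutrophils. Of the measured members of that list, 13 of 13 were lower in HSPC-like cells (median -2.17), 11 of 11 in dendritic-like cells (-2.49), 13 of 13 in B lineage-like cells (-2.67) and 8 of 8 in T, NK or innate lymphoid-like cells (-3.42). In immature neutrophil-like cells, which make these proteins, 6 of 20 were lower (median -0.26), and in cluster 14 3 were higher and 1 lower of 19 (-0.13). Ngp was seen in 95.2% of unchallenged and 34.3% of rechallenged B lineage-like cells, each drawn to 2000 UMIs. It was seen in 95.2% and 30% of T, NK or innate lymphoid-like cells, in 87.9% and 26.4% of HSPC-like cells, and in 100% of immature neutrophil-like cells of both libraries. Over all cells the thinned share was 94.2% and 46.8%. Lymphoid cells should not make Ngp, so its level there is a measure of free RNA in the droplets. That level differed between the libraries, and the Ngp shares of HSPC-like and monocyte-like cells (84.1% unchallenged and 23.9% rechallenged) were below it in both. The part of free RNA in any other difference was not tested.

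Lymphocyte and basophil genes were higher over all cells, and less so with class shares held equal. Ccl5 was at 33.9 CPM (31.3 to 36.8) in the unchallenged library and 334 CPM (325 to 343) in the rechallenged one, a log2 ratio of 2.97, with 89.0% of rechallenged UMIs from T, NK or innate lymphoid-like cells. Its ratio at equal shares was 0.88. Gzma, a granule protease of cytotoxic cells, was at 6.18 and 84.1 CPM (2.54, 0.62 at equal shares), with 95.3% from that class. Il2rb, a receptor chain for interleukins 2 and 15, was at 3.06 and 36.7 CPM (1.84) and Cd7 at 4.09 and 45.1 CPM (1.97). Of 15 measured members, 9 were higher and 1 lower in the T, NK and innate lymphoid list (median 0.77), and 2 higher and 0 lower at equal shares (median -0.08). Within the class, Gzma was at 786 and 1874 CPM (1.24) and the NK receptor gene Klra8 at 79.4 and 344 CPM (1.99). These ratios go with the larger part of the class that cluster 18 held in the rechallenged library, and 52.2% of 31-base words at the end of Klra8 occur in other genes.

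In HSPC-like cells Ccl5 was at 12.3 and 73.5 CPM (1.90), while Gzma was not among the measured genes of that class. Mcpt8 was at 59.1 and 282 CPM (2.08) over all cells, with 92.5% of rechallenged UMIs from basophil or mast-like cells, and the basophil protease gene Prss34 at 59.5 and 253 CPM (1.92). At equal shares their ratios were 0.88 and 0.72, past 1.5-fold. Within basophil or mast-like cells Mcpt8 was at 3414 and 7125 CPM (1.06). The activation marker Cd69 was at 50.8 and 300 CPM (2.35), Tnfaip3 at 39.1 and 172 CPM (1.89) and Egr1 at 58.6 and 225 CPM (1.77). Of 9 measured members, 5 were higher and 0 lower in the immediate early list there, which holds genes switched on within minutes of a stimulus, with a median of 0.72 against −0.11 for all genes of the class. The basophil or mast-like cells thus had both more cells and higher levels of these genes per UMI.

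B cell precursor genes were lower over all cells, with all 12 measured members of the B lineage list lower (median -1.83). Igll1 and Vpreb1, which encode the surrogate light chain of precursor B cells, were at 344 and 19.9 CPM (-3.57) and 397 and 36.1 CPM (-3.14). Ebf1, the factor that sets B cell identity, was at 541 and 96.1 CPM (-2.38), but at equal shares its ratio was -0.01, and within B lineage-like cells it was at 4367 and 4371 CPM (0.00). Igll1 was lower within that class too, at 2750.5 and 968 CPM (-1.50), as was Tifa at 1005 and 257 CPM (-1.93), and Bach2, a repressor in B cells, was higher at 83.2 and 275 CPM (1.61). Of 12 measured members, 1 was higher and 5 lower of the B lineage list in that class, where 8.39% of all genes were higher and 28.5% lower. Only 140 rechallenged B lineage-like cells reached 2000 UMIs, against 1028 unchallenged, so these are values of the deeper cells, and 388 and 1192 cells made up the class at all depths. The limit also bears on the all-cell ratios. Among cells of at least 2000 UMIs the class was 12.2% unchallenged and 1.86% rechallenged, against 13.6% and 4.68% at all depths. The all-cell list median was −0.95 without thinning and −1.04 at 1000 UMIs. Of the 31-base words at the end of Mzb1, 99.6% occur in other genes and of those of Vpreb1 38.9%, so both counts may be shared.

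Erythroid genes were lower over all cells, with 0 higher and 7 lower of 16 (median -0.45), and 4 higher and 2 lower at equal shares (median -0.12). Klf1, the master factor of red cells, was at 43.7 and 10.1 CPM (-1.42) and within erythroid-like cells at 475 and 197 CPM (-1.23). In the same cells the late genes Slc4a1, the anion exchanger of the red cell membrane, and Slc25a37, the mitochondrial iron carrier, were higher, at 56.8 and 149.6 CPM (1.26) and 63.3 and 159.8 CPM (1.21). Within the erythroid-like class 6 of 16 erythroid genes were higher and 2 lower. In HSPC-like cells 5 of 8 measured erythroid genes were lower, with Klf1 at 67.2 and 23.6 CPM (-1.20), Car1 at -0.98 and Car2 at -1.02 on the log2 scale. Cluster 10 of that class has Car1, Apoe and Gata2 among its leading genes. It held 35.4% of unchallenged and 29.9% of rechallenged HSPC-like cells, and its part in these ratios was not tested.

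HSPC-like cells, the class nearest to the Kit enrichment, had Kit, Cd34 and Gata2 within 1.5-fold between the libraries. Kit was at 127 and 159.9 CPM (0.31), the sialomucin Cd34 at 221 and 179 CPM (-0.29) and Gata2, a factor of stem and mast cells, at 98.5 and 126 CPM (0.33). Ly6a, which encodes the stem cell antigen Sca-1 and responds to interferon, was at 155 and 92.8 CPM (-0.68). It was past 1.5-fold by less than the scaling shift of this class (−0.26), so that call depends on the scaling. Of 14 measured members, 1 was higher and 4 lower in the stem cell identity list (median -0.24, all genes −0.22). Mycn, which drives growth of stem cells, was at 51.3 and 18.2 CPM (-1.12) and Txnip, a brake on glucose uptake, at 198 and 115 CPM (-0.73). The call of Txnip depends on the scaling as that of Ly6a does.

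In the same class the genes of the immediate early response were higher for 5 and lower for 1 of 15 (median 0.31). Egr1 was at 47.2 and 130.4 CPM (1.30) and Jund at 295 and 530 CPM (0.82). Of genes of ribosome biogenesis and the factor Myc, 0 were higher and 6 lower of 17 (median -0.46), with Dkc1 at 102 and 49.4 CPM (-0.91). Genes of the G2 and M phases had 0 higher and 0 lower of 21, and those of S phase 1 higher and 3 lower of 23, which leaves most cell cycle genes of this class within 1.5-fold. Azurophil genes had 0 higher and 4 lower of 12, with Elane at 318 and 169.5 CPM (-0.87) and Mpo at a ratio of -0.17. In lymphoid cells, which should not make it, Elane was at 406 and 114 CPM (B lineage-like) and 286 and 114 CPM (T, NK or innate lymphoid-like). Elane in HSPC-like cells thus stood near that level, and the part of free RNA in its ratio was not tested. The median of the immediate early list in this class was −0.02 when all variable genes were used for clustering, which places other cells in the class.

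Immediate early genes differed in direction by class. Monocyte-like cells had 7 higher and 0 lower of 11 (median 0.81), neutrophil progenitor-like cells 3 and 0 of 8 (0.19), dendritic-like cells 0 and 4 of 14 (-0.47) and B lineage-like cells 0 and 7 of 12 (-0.91). T, NK or innate lymphoid-like cells had 0 and 3 of 8 (-0.51). Of all genes, 5.19% were higher in monocyte-like and 5.09% in neutrophil progenitor-like cells. Lower were 17.9% in dendritic-like (median −0.18), 28.5% in B lineage-like (−0.24) and 22.1% in T, NK or innate lymphoid-like cells (−0.07). Over all cells 7 were higher and 2 lower of 18. Egr1 was at 10.7 and 44.8 CPM (1.41), Nr4a1, a nuclear receptor of the same response, at 2.72 and 16.1 CPM (1.04), and the phosphatase gene Dusp2 at 86 and 34.4 CPM (-1.11). In neutrophil progenitor-like cells Jund was at 13.7 and 109 CPM (2.32), and in monocyte-like cells Klf2 was at 15.7 and 80.2 CPM (1.81). In monocyte-like cells the chemokine receptor gene Ccr2, which lets monocytes leave the marrow, was at 51.4 and 145 CPM (1.33), and Ccr2 is among the genes that lead cluster 9.

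Genes of the mitochondrial genome were higher. Of 13 measured members, 12 were higher and 0 lower over all cells (median 0.92), with 11 higher and 0 lower at equal shares (median 0.67). The cytochrome oxidase gene mt-Co1 was at 3745 and 8476 CPM (1.18) and mt-Nd3, of complex I, at 213 and 498 CPM (1.19). Members were higher in each of the 12 classes and clusters, with 7 of 12 in HSPC-like cells, 11 of 11 in immature neutrophil-like and 10 of 10 in B lineage-like cells. All 31-base words at the end of mt-Co1 and mt-Co2 also occur elsewhere in the transcript set (100%), and the mitochondrial share of UMIs, a usual measure of cell quality, was 2.00% and 3.90% of thinned UMIs. Nuclear genes of the respiratory chain were higher for 15 and lower for 0 of 28 over all cells (median 0.59), and for 2 and 1 at equal shares (median 0.38). The complex III subunit gene Uqcr11 was at 373 and 718 CPM (0.93), and the ATP synthase subunit genes Atp5k and Atp5e had ratios of 0.84 and 0.72.

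Ribosomal protein genes were higher for 40 and lower for 0 of 97 measured, with a median of 0.49. The ratios also ran with transcript length. Outside the ribosomal, mitochondrial and specific granule genes, the median log2 ratio over all cells was 0.22 for 192 genes with transcripts under 600 bases, −0.17 for those of 1000 to 1500 bases and 0.11 for those of 4000 bases or more. In HSPC-like cells these medians were 0.08, −0.42 and 0.07. The respiratory chain list has a median transcript length of 569.5 bases, and its median ratio was 0.55 after the median of genes of like length was taken off. The middle lengths thus stood lowest in both. The part of library preparation in this was not tested.

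Few genes were past the fold in the same direction in every class where they were measured. Among 3222 genes measured in at least 4 of the 12 classes and clusters, 12 (0.372%) were higher throughout and 58 (1.8%) lower throughout. The scaling shift of the classes ran from −0.06 (cluster 7) to −0.28 (erythroid-like), so the balance of these counts depends on the scaling. Of the 12, 8 were ribosomal protein, mitochondrial or predicted genes, and the other 4 were Hist1h2ap, Cops9, Mgat5 and Sorl1. Hist1h2ap, a replication-dependent histone H2A gene, was at 585 CPM (574 to 597) in the unchallenged library and 1564 CPM (1544 to 1583) in the rechallenged one, a log2 ratio of 1.40 over all cells and 1.38 to 2.28 in the 11 classes that measured it. All 31-base words at its end occur in other genes, so reads of sister histone genes cannot be told apart, and of the 15 measured genes of the histone list, Hist1h2ap included, 2 were higher and 2 lower (median 0.05). The other higher one was the H4 gene Hist1h4i, at 49.2 and 102 CPM (0.92) over all cells, with ratios of 1.37 in cluster 7 and 1.31 in immature neutrophil-like cells. Cops9, a small subunit of the COP9 signalosome that trims ubiquitin-like tags from ligases, was at 258 CPM (250.4 to 265) in the unchallenged library and 581 CPM (569 to 593) in the rechallenged one (1.14), higher in all 12 classes, with a median of 1.01. It was seen in 39.7% of unchallenged and 66.2% of rechallenged cells at 2000 UMIs.

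Predicted genes apart, the 58 genes lower throughout were led by Isg15 (median −2.26 over 5 classes), Rtp4 and Chil3 (−1.71 over 10 classes). H2-T23 (−1.51 over 7), Ifi27 (−1.31 over 9), the chromatin protein gene Hmgb3 (−1.18 over 7), C1qtnf12 (−1.18 over 4) and Ncf4, a cytosolic subunit of the NADPH oxidase that makes bactericidal oxidants (−1.15 over 7), followed. In the class where each was least low, Chil3 had a ratio of −0.68, Ncf4 −0.74 and Hmgb3 −0.76, near enough to the fold to depend on the scaling. Of their unchallenged UMIs, 79.4% of Chil3 and 60.8% of Ncf4 came from immature neutrophil-like cells. The part of free RNA in the ratios of Chil3 and Ncf4 in other classes was not tested. Ncf4 was at 233 and 90.9 CPM (-1.27) over all cells, while the other oxidase genes were less low, with 2 of 7 lower in all (median -0.54).

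**Figure D4:**
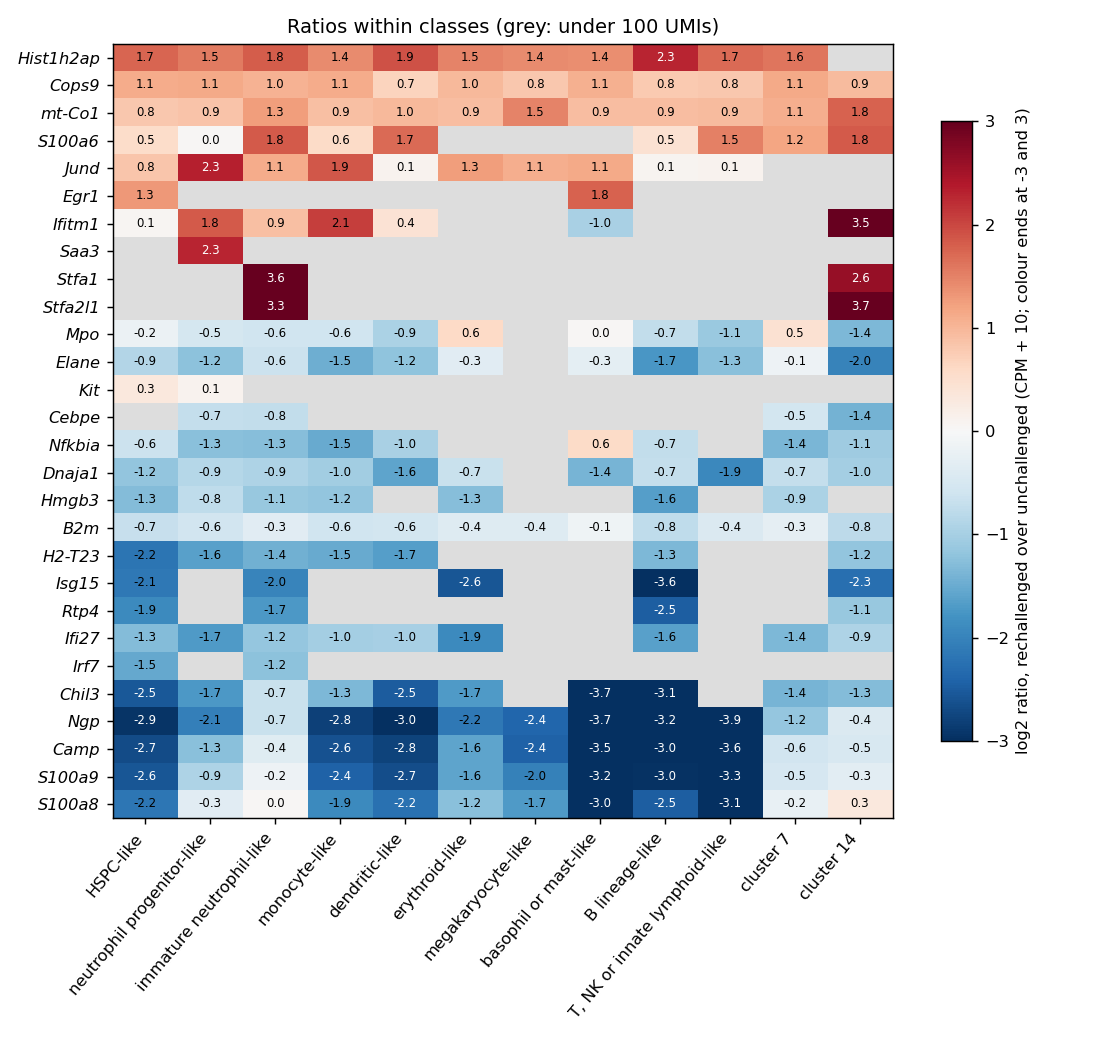
Log2 ratio of rechallenged over unchallenged level for selected genes (rows) in each class or cluster (columns), with grey for genes under 100 UMIs over the pair in that class. Isg15 and H2-T23 are lower and Hist1h2ap and Cops9 higher wherever they are measured. Egr1 is higher in HSPC-like and basophil or mast-like cells, where it is measured, while Ifitm1 differs in direction by class.

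Among the remaining lists, endoplasmic reticulum chaperone genes were higher for 10 and lower for 0 of 20 (median 0.54), but 1 and 0 at equal shares (median −0.11). Hsp90b1, the chaperone of secreted and membrane proteins, was at 197 and 487 CPM (1.26) over all cells and at 385 and 908 CPM in neutrophil progenitor-like cells (1.22). Cytosolic heat shock genes had 0 higher and 2 lower of 9, with the co-chaperone gene Dnaja1 at 252 and 131 CPM (-0.90), and Dnaja1 was lower in all 11 classes that measured it. Glycolysis genes had 0 higher and 0 lower of 17 (median -0.05), S phase genes 0 and 2 of 26 (0.00), G2 and M phase genes 0 and 6 of 30 (-0.27) and cholesterol synthesis genes 1 and 0 of 15 (0.15). Cytokine receptor genes had 4 higher and 0 lower of 17 (median 0.30, and −0.01 at equal shares), with the shared signalling chain genes Il6st and Csf2rb at 4.09 and 14.6 CPM (0.80) and 23.1 and 42.8 CPM (0.67). Endotoxin sensing genes had 1 higher of 11, the co-receptor gene Cd14 (2.89 and 11.6 CPM, 0.74), STAT feedback genes 1 higher of 11, the survival gene Mcl1 (64.2 and 122 CPM, 0.83), and monocyte lineage genes 3 higher and 2 lower of 16. Stem cell identity genes over all cells had 2 higher and 1 lower of 15, ribosome biogenesis and Myc genes 0 and 1 of 19 and the 4 measured sex-linked genes 0 and 0.

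**Figure D5:**
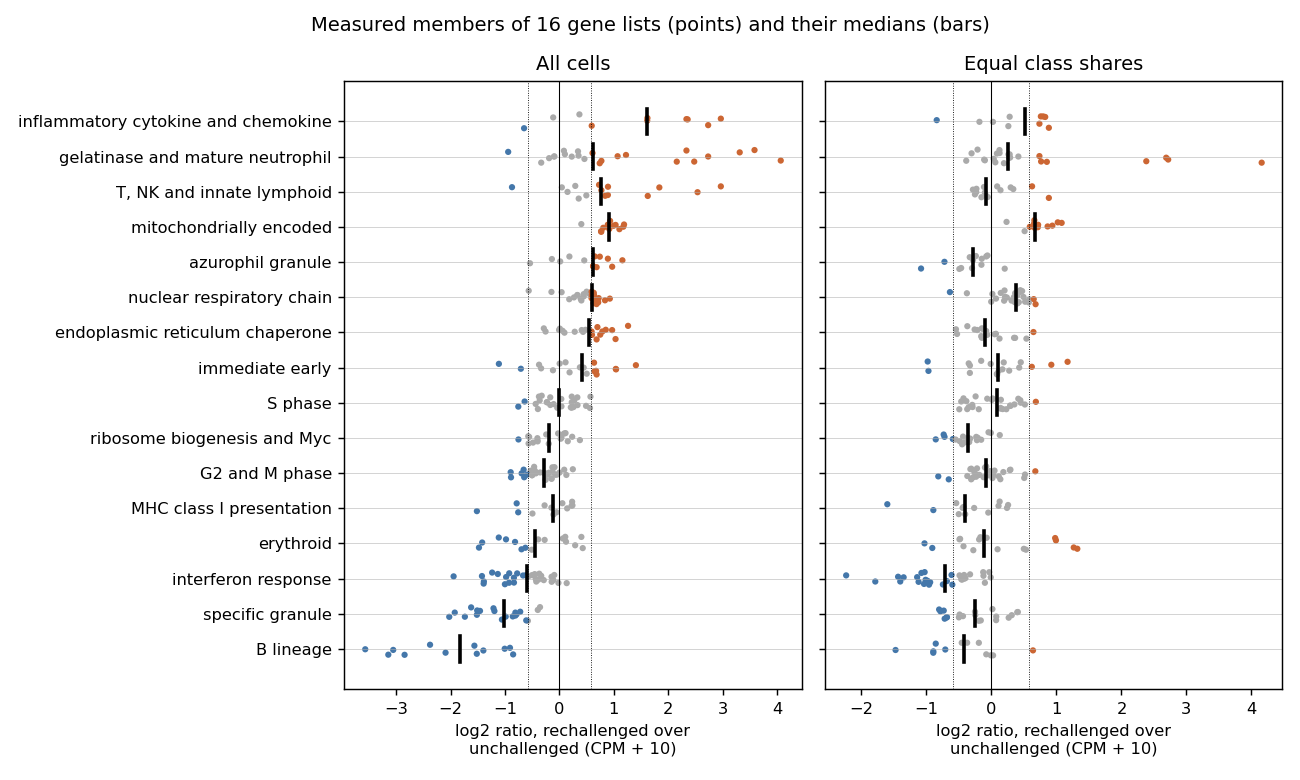
Log2 ratio of rechallenged over unchallenged level for the measured members of selected gene lists (points), with list medians as bars. The left panel is over all cells and the right panel at equal class shares. Vertical lines mark 0 and 1.5-fold either way. The interferon median lies below 0 by both measures. The medians of the azurophil granule, endoplasmic reticulum chaperone and T, NK and innate lymphoid lists lie above 0 over all cells and below 0 at equal shares.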

How the data were processed

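The deposited values are whole UMI counts per gene and cell barcode (checked on the tables: 31053 genes, smallest barcode total 500). The authors used Cell Ranger 3.0.0 and the build mm10, per the submitters' processing notes. The tables held 119646078 UMIs unchallenged and 95522747 rechallenged. Limits on UMIs, genes and mitochondrial share removed 461 and 381 barcodes. Levels were summed over thinned cells, with exact Poisson intervals for CPM and exact Clopper-Pearson intervals for shares. PCR copies are collapsed by UMI, and the intervals hold counting error only.

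Classes came from leidenalg 0.10.2 at resolution 1 on 30 principal components, 15 neighbours and 2000 variable genes (scanpy 1.11.5, anndata 0.12.19, scikit-learn 1.9.0), without the interferon, inflammatory, immediate early, cell cycle, sex-linked, ribosomal and mitochondrial genes. A cluster of at least 20 cells took its name from 1 of 14 marker lists when at least 3 of its markers stood 2-fold over other cells. It stayed unnamed where its top 10 genes held 3 or more markers of another list, or more of another than of its own, or where its cells were shallow and none of its markers was in the top 10. Scrublet used an expected rate of 6%. Other tools were numpy 2.4.6, scipy 1.17.1, pandas 2.3.3 and matplotlib 3.10.9. The library challenged once entered the clustering and nothing else. The 31 gene lists hold 546 entries, of which 2 were not in the tables. Genes are named by rank (the 15 largest and smallest ratios, 8 at equal shares and across classes, 4 per class and list) or from a standing list, with ribosomal, mitochondrial, immunoglobulin, haemoglobin and predicted genes left out of the ranks. Members, lists and rules were chosen with earlier results of these data known. Ratio steps were tested on simulated data. Alternatives covered depth, cell filters, doublets, scaling, added CPM, gene minimum, fold, class make-up and clustering.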

Additional observations from a re-analysis of the deposited data

How the results depend on the processing

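No paired analysis was possible because each group is 1 library. The count of genes higher over all cells, 366, became 941 when 1 CPM was added in place of 10, 162 at equal class shares, 601 when levels were taken over UMIs outside ribosomal, mitochondrial and specific granule genes, and 79 at 2-fold. The count of lower genes, 516, became 1205 with 1 CPM and 116 at 2-fold. The scaling over other UMIs and the adjustment for transcript length were chosen after seeing the data. At equal class shares the list medians were −0.284 for azurophil granule, −0.25 for specific granule, −0.11 for endoplasmic reticulum chaperone, 0.51 for inflammatory, −0.42 for B lineage and −0.082 for T, NK and innate lymphoid genes, so the azurophil, chaperone and lymphoid medians changed sign. The inflammatory median was 0.40 without thinning, 0.67 at 4000 UMIs per cell and 0.41 with genes of at least 30 UMIs. Without thinning the erythroid median was −1.05 and the B lineage median −0.95, and the latter was −1.04 at 1000 UMIs and −2.46 with 1 CPM added. The log2 ratio of the HSPC-like share was −0.77 at Leiden resolution 2, and that of the dendritic-like share 2.84 there, 2.86 with the 2 libraries clustered alone and 1.70 with Scrublet calls kept, against 1.09. Named genes past 1.5-fold over all cells that changed sign at equal class shares were H2-Aa (−0.055), H2-Eb1 (−0.107), Prtn3 (−0.062), Nkg7 (−0.154), Prss57 (−0.080), F13a1 (−0.006), Mpo (−0.466) and S100a8 (0.015). Within classes, the specific granule median in neutrophil progenitor-like cells was 0.062 when all variable genes were clustered, and the acute phase median in dendritic-like cells 0.076 when the 2 libraries were clustered alone. The cause of these moves was not tested. The other alternatives gave 271 to 449 higher and 384 to 697 lower genes. The median of the interferon list over all cells ran from −1.05 to −0.45 over 15 alternatives. Depth limits weakly expressed genes, and with single libraries no setting shows the spread between animals.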

Other observations

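Immunoglobulin genes stayed in the counts of the comparisons but were left out of the ranks from which genes were named. Ighg2c, the heavy chain of 1 class of secreted antibody, was the only gene with at least 100 UMIs in the kept cells of 1 library and 0 in the other. It had 0 UMIs unchallenged and 1927 rechallenged at full depth, and 1876 of these (97.4%) lay in 1 cell of an unnamed cluster. Ighg2b had 568 UMIs over 164 cells unchallenged, where the top cell held 3.87%, and 610 over 85 cells rechallenged, where 1 cell held 473 (77.5%). Igha had 3915 and 2087 UMIs, with 66.2% and 54.0% in 1 cell. The UMIs of Ighg2c and Igha, and those of Ighg2b in the rechallenged library, thus came mostly from single cells. Igkc, the kappa light chain, was spread over 3536 and 1043 cells, with 15.1% and 12.6% of its UMIs in the top cell.

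Slc7a11, the cystine importer that feeds glutathione synthesis, was at 3.18 and 18.2 CPM (1.10), with a ratio of 1.2 at equal class shares, and 29.0% of its rechallenged UMIs came from mature neutrophil-like cells. S100a6 was at 522 and 1726 CPM (1.71) although the share of cells with a UMI was 25.5% and 25.9%, so the cells with a UMI held more of them on average.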
